A study of Homo sapiens with 4 samples.

Results

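Desmosomal cadherins and plaque proteins were profiled in HaCaT, a keratinocyte line from human epidermis that divides without limit in culture. The set comprised 10 genes chosen by symbol, namely DSG1, DSG2, DSG3, DSC1, DSC2, DSC3, DSP, JUP, PKP1 and PKP3, out of 19233 protein-coding genes and 44591 genes in all. RNA-seq was performed on total RNA of 4 replicates of 1 condition, HaCaT without treatment, grown in medium that held 12% fetal bovine serum according to the labels. All 4 libraries share the 1 cell line, and there was no treated group, so values were compared between genes within a replicate and between replicates. The labels do not say whether the replicates came from separate cultures (the study calls them biological repeats), so every p-value below measures only the spread among these 4 libraries.

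Desmosomes are the junctions that tie the keratin filaments of neighbouring keratinocytes together. Desmogleins and desmocollins are the cadherins that span the membrane and meet those of the next cell, JUP (plakoglobin) and the plakophilins bind their tails inside the cell, and DSP (desmoplakin) connects this plaque to the keratins. In epidermis DSG3 and DSC3 are known from the lower layers, DSG1 and DSC1 from the upper, differentiating layers, and DSG2 and DSC2 are the forms that simple epithelia and heart muscle also use.

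Levels are given as TPM, the count per length of a gene scaled to 1000000 over the protein-coding genes of a library, which allows genes to be compared with each other. The total count was 73082279 in replicate 1 and 17056035 to 19745170 in replicates 2 to 4. Replicate 1 stood apart: protein-coding genes took 76.1% of its counts against 95.3% to 96.4%, and its log2 differences from the mean of the other libraries had a Spearman correlation of -0.51 with GC content across 11889 genes. In replicate 3 the corresponding correlation with gene length was -0.42. Genes within a library share these properties, so both correlations are descriptions. The keratinocyte label was matched by its markers, 7 of 7 of which had a TPM above 1 in every replicate, with a summed TPM of 10256 to 16115. Summed fibroblast markers reached 5.20 to 9.70, melanocyte markers 3.97 to 9.12, immune markers 11.4 to 52.0 and endothelial markers 0.859 to 2.36, while TYR, PECAM1, KDR and TEK had a count of 0 in all 4 libraries. In such bulk samples, fewer cells expressing a gene and less of its RNA per cell cannot be told apart.

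Most of the desmosomal set was detected in HaCaT keratinocytes. Of the 10 members, 9 had a mean TPM above 1, compared with 12165 of the 19233 protein-coding genes. DSG1 passed this limit through replicate 1 alone, and without that library 8 members passed, for which no share of all genes is given. A TPM above 1 in every replicate was found for 8 members, a limit for which no share of all genes is given. Their summed TPM was 3074, 2678, 1700 and 2832 in replicates 1 to 4, or 2571 ± 603 (SD, n = 4), which was 0.307%, 0.268%, 0.170% and 0.283% of all protein-coding TPM. The cytoplasmic genes JUP and PKP3 had the largest means, the cadherins DSG3, DSG2, DSC3 and DSC2 followed below DSP and PKP1, and the cadherins of the upper epidermis, DSG1 and DSC1, were at or near 0 in 3 of 4 libraries.

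**Figure D1:**
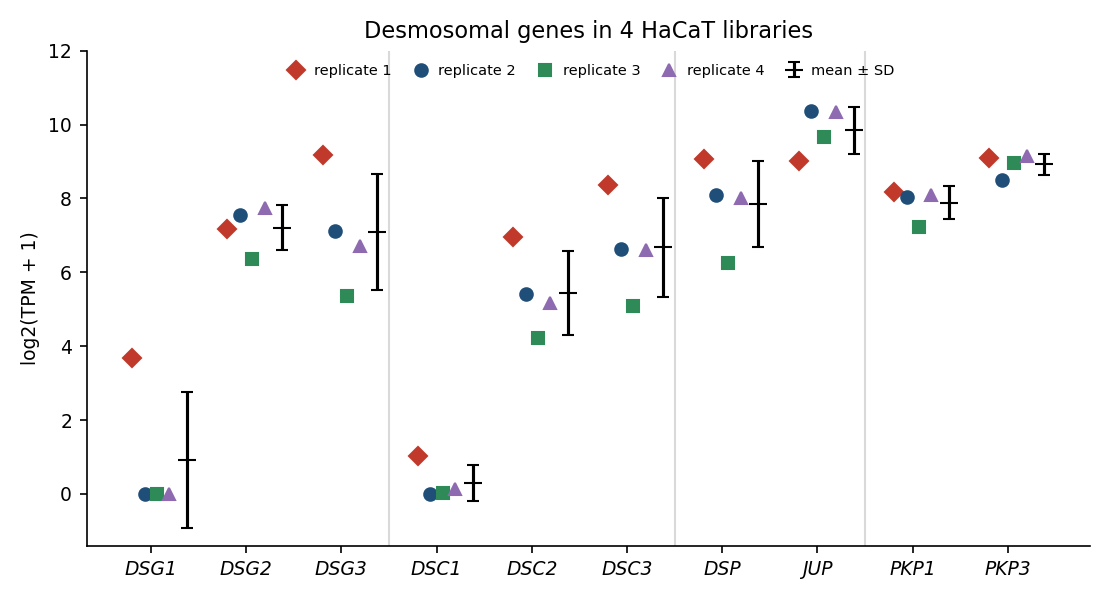
Level of each of the 10 genes as log2(TPM + 1) on the vertical axis, with 1 symbol per replicate and the mean ± SD (n = 4) of the log2 values as a black bar; grey lines separate desmogleins, desmocollins, DSP with JUP, and plakophilins. PKP3 lay between 365 and 563 TPM in all 4 replicates, whereas DSG3 spread from 39.9 to 578 and DSG1 was above 0 in replicate 1 only.

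Among the 3 desmogleins of the set, DSG2 and DSG3 had the highest levels. DSG2 (chromosome 18, 29077967 to 29128971, plus strand, in hg19) had a TPM of 143, 188, 81.6 and 213 in replicates 1 to 4, or 156 ± 57.7 (SD, n = 4). DSG3 (chromosome 18, 29027732 to 29058665, plus strand), the antigen of pemphigus vulgaris, had 578, 139, 39.9 and 104, or 215 ± 245. Over replicates 2 to 4 alone DSG2 had 161 ± 69.8 and DSG3 94.1 ± 50.1 (SD, n = 3). DSG3 was thus above DSG2 in replicate 1 and below it in the other 3 libraries. Replicate 1 had a ratio of DSG2 to DSG3 of 0.247, with a 95% Clopper-Pearson interval of 0.244 to 0.251 that covers counting error only. Replicate 2 had a ratio of 1.35 (1.31 to 1.40), replicate 3 one of 2.05 (1.94 to 2.16), and replicate 4 also one of 2.05 (1.98 to 2.13). On the log2(TPM + 1) scale the difference of DSG2 from DSG3 was 0.12 ± 1.44 (SD, n = 4), with p = 0.875 by an exact permutation test that flips signs, two-sided, and a Benjamini-Hochberg adjusted p = 0.963 over 11 pairs, so it did not exceed the spread between replicates. Without replicate 1 the difference was 0.83 ± 0.34 over the remaining 3. With 4 replicates the smallest p of this test is 0.125, so no pair could reach 0.05.

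DSG1, the antigen of pemphigus foliaceus, was found in 1 library. DSG1 (chromosome 18, 28898052 to 28939209, plus strand) had 2107 counts in replicate 1, a TPM of 11.9 with an exact Poisson 95% interval of 11.4 to 12.5 for counting error. It had 0 counts in replicates 2, 3 and 4, where a floor of 3 counts per library equals a TPM of 0.0621, 0.0460 and 0.0554. The upper ends of the exact Poisson 95% intervals there were somewhat higher, at 0.0764, 0.0565 and 0.0682. The value of replicate 1 was 192-fold above the floor of replicate 2, 260-fold above that of replicate 3 and 215-fold above that of replicate 4. DSG1 passed the limit of a mean TPM above 1 through replicate 1 alone. The antisense genes that overlap it, which include DSG1-AS1, had 26 counts and 8 counts in replicate 1 and 0 in the others, and the strand setting of the counting is not given in the sources used here.

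Within the desmogleins, the makeup differed between replicate 1 and the rest. DSG2 took 19.5%, 57.5%, 67.2% and 67.2% of the summed TPM of DSG1, DSG2 and DSG3 in replicates 1 to 4, or 52.9% ± 22.7 (SD, n = 4). DSG3 took 78.9%, 42.5%, 32.8% and 32.8%. DSG1 took 1.63% in replicate 1. DSG2 exceeded DSG1 by 6.29 ± 1.97 and DSG3 exceeded it by 6.17 ± 0.88 on the log2(TPM + 1) scale, each in 4 of 4 replicates (exact sign-flip p = 0.125, adjusted p = 0.172 for both, SD, n = 4). Such shares do not depend on how a library is scaled.

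The makeup of the desmocollins spanned a smaller range. DSC3 (chromosome 18, 28569331 to 28622781, minus strand) reached 327, 98.9, 33.3 and 95.9 TPM in replicates 1 to 4, or 139 ± 129 (SD, n = 4). DSC2 (chromosome 18, 28645940 to 28682395, minus strand) had 124, 41.8, 17.6 and 34.9, or 54.6 ± 47.6. Without replicate 1 the means were 76.0 ± 37.0 for DSC3 and 31.4 ± 12.5 for DSC2 (SD, n = 3). Both were highest in replicate 1 and lowest in replicate 3, and DSC3 was above DSC2 in all 4 libraries. DSC3 took 72.3%, 70.3%, 65.5% and 73.3% of the desmocollin TPM, or 70.3% ± 3.47, although its own level spanned a 9.81-fold range. The log2(TPM + 1) difference of DSC2 from DSC3 was -1.23 ± 0.25 (SD, n = 4, exact sign-flip p = 0.125, adjusted p = 0.172). With the union of annotated exons as length, 12495 bases for DSC2 in place of the deposited 5254, it was -2.58. DSC1 (chromosome 18, 28709199 to 28742819, minus strand) had 107, 0, 1 and 3 counts, a TPM of 1.03 in replicate 1 (exact Poisson 95% interval 0.845 to 1.25) and of 0 to 0.0943 in the others. It took at most 0.228% of the desmocollin TPM, and DSCAS, an antisense gene that overlaps it, had 26, 1, 4 and 0 counts. DSC2 exceeded DSC1 by 5.14 ± 0.75 and DSC3 exceeded it by 6.38 ± 0.95 on the log2(TPM + 1) scale in 4 of 4 replicates each (exact sign-flip p = 0.125, adjusted p = 0.172 for both).

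**Figure D2:**
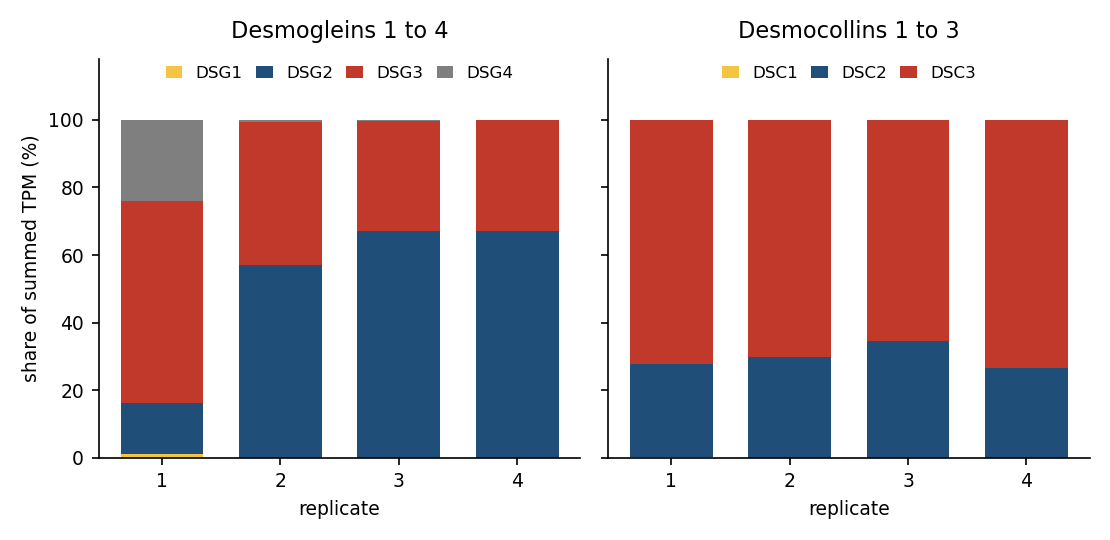
Share of each gene in the summed TPM of its family (vertical axis, percent) in each of the 4 replicates, for desmogleins with DSG4 included (left) and for desmocollins (right). DSG4 took 23.9% of the desmoglein TPM in replicate 1 and at most 0.538% in the others, whereas DSC3 took 65.5% to 73.3% of the desmocollin TPM in every replicate.

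The plaque genes were led by JUP, which also serves adherens junctions. JUP (chromosome 17, 39910859 to 39942964, minus strand) reached 521, 1312, 807 and 1291 TPM in replicates 1 to 4, or 983 ± 386 (SD, n = 4), with the lowest value in replicate 1. It lay above 97.7% to 99.3% of the 12165 protein-coding genes that had a mean TPM above 1. DSP (chromosome 6, 7541808 to 7586950, plus strand) had 534, 271, 75.2 and 255, or 284 ± 189 (200.4 ± 109 without replicate 1), with the highest value in replicate 1 and the lowest in replicate 3. JUP was slightly below DSP in replicate 1, where the ratio of their TPM was 0.976 (95% Clopper-Pearson interval 0.966 to 0.987), and above it in the others, where the ratio was 4.85, 10.7 and 5.05. The log2(TPM + 1) difference was 1.99 ± 1.45 (SD, n = 4, exact sign-flip p = 0.25, adjusted p = 0.306). JUP also exceeded its close relative CTNNB1 (beta-catenin), whose TPM was 199, 126, 155 and 140, by 2.58 ± 0.91 on the same scale in 4 of 4 replicates (exact sign-flip p = 0.125, adjusted p = 0.172), or by 3.69 with exon-union lengths.

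The plakophilins PKP3 and PKP1 were the steadiest members over the 4 replicates. For PKP1 this rested on replicate 1. Over replicates 2 to 4 the SD of log2(TPM + 1) was 0.50 for PKP1, above 0.40 for JUP, and 0.32 for PKP3. PKP3 (chromosome 11, 392599 to 404908, plus strand) had a TPM of 544, 365, 498 and 563, or 492 ± 89.5 (SD, n = 4), and ranked second among the members in each library. PKP1 (chromosome 1, 201252580 to 201302121, plus strand) had 290, 264, 148 and 275, or 244 ± 65.1. PKP3 took 65.3%, 58.0%, 77.1% and 67.2% of their summed TPM, or 66.9% ± 7.89, and the log2(TPM + 1) difference of PKP3 from PKP1 was 1.04 ± 0.53 with PKP3 higher in 4 of 4 replicates (exact sign-flip p = 0.125, adjusted p = 0.172). Without length correction PKP3 took 52.6%, since its deposited length of 2953 bases is shorter than the 5447 bases of PKP1.

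Ordered by mean TPM, the members ran JUP, PKP3, DSP, PKP1, DSG3, DSG2, DSC3, DSC2, DSG1 and DSC1. Neighbours were called separated where the upper gene was higher in every replicate and the mean log2 difference exceeded its SD, which held for 2 of 9 pairs, DSC3 over DSC2 and DSC2 over DSG1. The other 7 neighbours were not separated by this rule. Of these, JUP over PKP3 had a mean difference of 0.92 ± 0.81 but was higher in 3 of 4 replicates. Replicate 1 decided much of this: without it, 6 of 9 neighbours were separated in the order JUP, PKP3, PKP1, DSP, DSG2, DSG3, DSC3, DSC2, DSC1 and DSG1. The pairs separated then were JUP over PKP3, PKP3 over PKP1, DSG2 over DSG3, DSG3 over DSC3, DSC3 over DSC2 and DSC2 over DSC1. DSC2 kept the same place, the eighth, in all 4 libraries.

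Ratios between the layers of the desmosome were compared within each library. The 6 cadherins summed to a TPM of 1185, 467, 172 and 448 in replicates 1 to 4, a 6.88-fold range, and DSP alone spanned a 7.10-fold range. Their ratio, cadherins over DSP, was 2.22, 1.72, 2.29 and 1.75, a 1.33-fold range, and so moved far less than either level. This ratio was singled out after its values were seen. The 6 cadherins leave out DSG4, which had a TPM of 230 in replicate 1 and at most 1.76 in the others. The 1.33-fold range therefore holds for the members only. JUP over the summed cadherins was 0.440, 2.81, 4.69 and 2.88, a 10.7-fold range. The width of that range rests on replicate 1: over replicates 2 to 4 it was 1.67-fold, beside 1.33-fold for cadherins over DSP and 2.71-fold for the summed cadherins. DSP and the 4 cadherins with a TPM above 1 in every replicate have lengths of 5254 to 9796 bases and a GC content of 38.9% to 47.9%, while JUP has 3508 bases and 61.5%; the part of length and GC content in these ratios was not tested.

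Desmogleins outweighed desmocollins in every library. The 3 desmogleins summed to a TPM of 733, 326, 121 and 317 and the 3 desmocollins to 452, 141, 50.9 and 131 in replicates 1 to 4. The ratio was 1.62 in replicate 1 and 2.32, 2.39 and 2.42 in replicates 2 to 4. That was a 1.05-fold range among these 3, while the sums spanned 2.68-fold and 2.76-fold. DSG4 is left out of these sums, and had a TPM of 230 in replicate 1 and 0.143 to 1.76 in the others. The ratio in replicate 1 thus depends on which desmogleins are counted. On the log2(TPM + 1) scale the difference was 1.10 ± 0.27 (SD, n = 4, exact sign-flip p = 0.125, adjusted p = 0.172).

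Classical cadherins of the adherens junction, CDH1 (E-cadherin) and CDH3 (P-cadherin), summed to a TPM of 364, 577, 264 and 548. Desmosomal cadherins were above them in replicate 1, where the ratio was 3.25, and below them in replicates 2 to 4, where it was 0.809, 0.654 and 0.817. The log2(TPM + 1) difference was 0.12 ± 1.06 (SD, n = 4, exact sign-flip p = 1, adjusted p = 1), and without replicate 1 it was -0.40 ± 0.18 over 3 libraries.

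**Figure D3:**
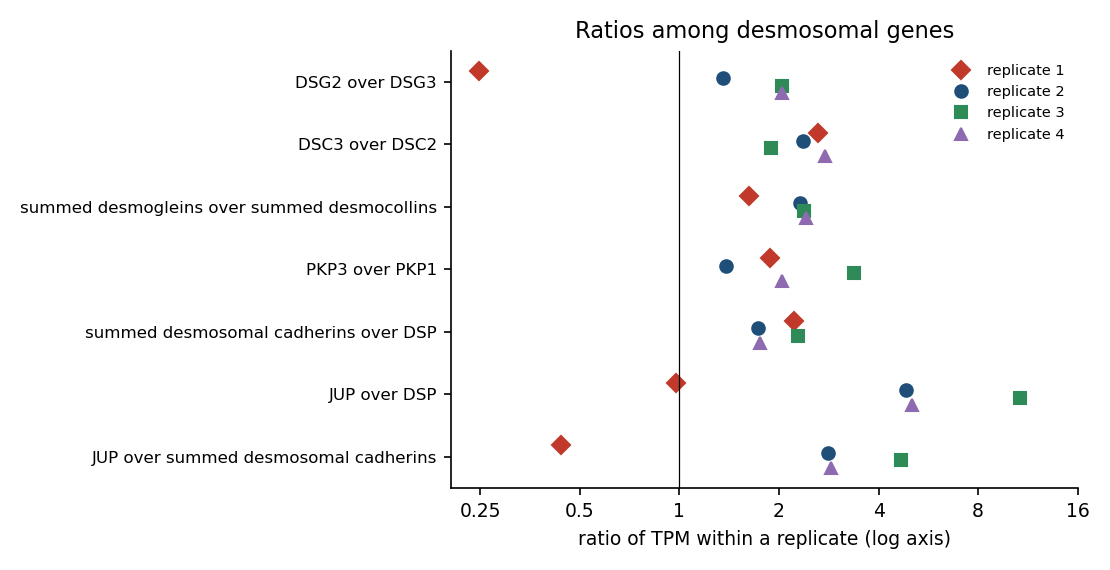
Ratio of TPM within a replicate (horizontal axis, logarithmic) for 7 pairs of desmosomal genes or sums, with 1 symbol per replicate and a line at a ratio of 1. Sums hold the members only, without DSG4. Cadherins over DSP stayed between 1.72 and 2.29 and DSC3 over DSC2 between 1.90 and 2.75, whereas DSG2 over DSG3 and both ratios of JUP were lowest in replicate 1 and lay on both sides of 1.

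All 6 cadherin members lie in 1 cluster on chromosome 18, together with DSG4, a desmoglein known from hair and the upper epidermis. In hg19 the order is DSC3, DSC2, DSC1, DSG1, DSG4, DSG3 and DSG2 over 560 kb. The desmocollins are on the minus strand and the desmogleins on the plus strand, with 155 kb between DSC1 and DSG1 and 17.5 to 32.9 kb between the other neighbours. Levels varied with position. The genes at both ends, DSC3 and DSG2 with their neighbours DSC2 and DSG3, were expressed in every replicate, and the genes in the middle, DSC1, DSG1 and DSG4, had a TPM of at most 1.76 in replicates 2 to 4. In replicate 1 the middle genes had a TPM of 1.03, 11.9 and 230. DSG4 had 26177, 55, 14 and 5 counts in replicates 1 to 4, and a TPM of 230, 1.76, 0.332 and 0.143. With DSG4 counted among the desmogleins, it took 23.9% of their TPM in replicate 1, and DSG1 took 1.24%. DSG2, at 1 end of the cluster, was the only one of the 7 genes that was not higher in replicate 1 than the mean of the others (log2 difference -0.05). This pattern along the cluster was described after the values were seen.

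**Figure D4:**
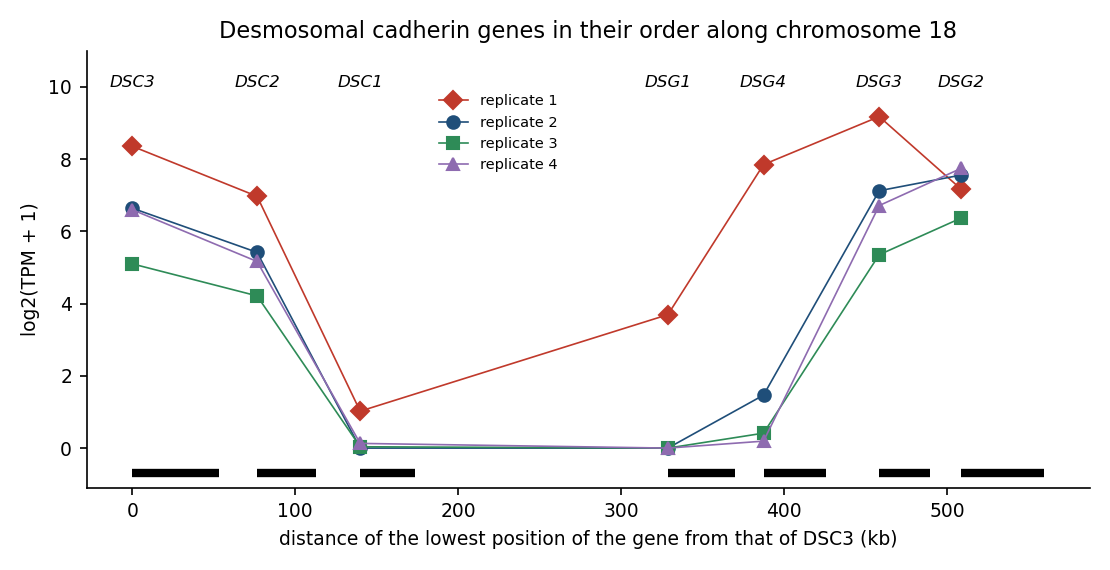
Level as log2(TPM + 1) on the vertical axis against the distance in kb of the lowest position of each gene from that of DSC3, for the 7 cadherin genes of the cluster; black bars mark the extent of each gene, and lines join the values of 1 replicate. In replicates 2 to 4 DSC1, DSG1 and DSG4 lay at or near 0 between expressed genes on either side, and replicate 1 lay above the others at each gene except DSG2.

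Sequence just before the start of transcription was read for the members from RefSeq (GRCh38.p14), which held 11 promoter entries for 9 of the 10 members, and none for PKP3. Each entry was taken as the 250 bases before the start. The 3 members at the lowest GC content were DSG3 with 42.8%, DSG1 with 48.0% and DSC1 with 52.0%, against a median of 58.0% over 35116 promoters. Their ratios of observed to expected CpG were 0.350, 0.209 and 0.0654, against a median of 0.558. DSG2 with 75.2% GC and DSP with 78.0% GC were the richest, with CpG ratios of 0.738 and 0.871. DSG2 and DSG3, which are neighbours in the genome, thus have promoters of unlike base composition.

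The longest run of identical bases on the given strand was taken for each of 53 comparisons between promoters of different members. It was 20 bases for DSG1 and DSG3, at most 11 bases for any other pair, and 8 bases at the median. It begins 120 bases before the start of DSG1 and 78 bases before that of DSG3, and occurred in 2 of 35116 promoters, those of DSG1 and DSG3 themselves. The 150 bases before the start are shown for both, with the shared run in capitals, and beside them those of DSG2, the GC-rich neighbour without the run, and DSC1, the member with the fewest CpG. The positions are chr18:31318010-31318159 for DSG1, chr18:31447591-31447740 for DSG3, chr18:31498027-31498176 for DSG2 (all on the plus strand) and chr18:31162857-31163006 for DSC1 (minus strand), and all read 5′ to 3′ toward the start.
DSG1: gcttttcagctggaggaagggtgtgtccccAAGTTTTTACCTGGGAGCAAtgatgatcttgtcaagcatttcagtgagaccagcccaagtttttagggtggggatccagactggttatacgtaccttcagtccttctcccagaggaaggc
DSG3: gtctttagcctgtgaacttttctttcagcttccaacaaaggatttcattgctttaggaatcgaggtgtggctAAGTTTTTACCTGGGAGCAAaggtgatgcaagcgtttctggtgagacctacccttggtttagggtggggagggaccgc
DSG2: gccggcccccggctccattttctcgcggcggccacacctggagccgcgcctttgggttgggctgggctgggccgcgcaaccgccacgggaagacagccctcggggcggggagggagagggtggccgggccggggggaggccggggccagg
DSC1: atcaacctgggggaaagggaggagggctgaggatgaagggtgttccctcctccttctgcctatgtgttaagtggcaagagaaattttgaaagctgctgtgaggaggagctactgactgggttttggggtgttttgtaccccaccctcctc
In the same windows 5 motifs were searched on both strands: TATAAA, the GC box GGGCGG, the AP-1 motif TGANTCA, the Grainyhead-like motif AACCNGTT and the E-box CAGGTG, none of which contains another. The GC box was in 6 of the 11 entries (both of DSC2, 1 of JUP, and those of DSG2, DSP and PKP1), with 7 copies in DSP, and is in 42.6% of all promoters. The E-box was in 5 of 11 (1 of DSC2, 1 of JUP, and those of DSG1, DSG2 and DSP), and is in 17.5% of all. TATAAA, the AP-1 motif and the Grainyhead-like motif were in 0 of 11, and are in 10.7%, 6.57% and 1.49% of all promoters, which says only that these letters are not in these windows.

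Replicate 1 differed from the others in most cadherins. On the log2(TPM + 1) scale, replicate 1 minus the mean of replicates 2 to 4 was 3.69 for DSG1, 2.78 for DSG3, 2.24 for DSC3, 2.04 for DSC2, 1.62 for DSP and 0.97 for DSC1. For PKP1, PKP3 and DSG2 it was 0.39, 0.22 and -0.05, and for JUP -1.09. Of the 9 members with a mean TPM above 1, 5 were higher by more than 1 (DSG1, DSG3, DSC2, DSC3 and DSP), compared with 17.4% of the 12165 genes tested, and 1 was lower (JUP), compared with 20.1%. Replicate 1 was the highest of the 4 for 6 of 9 members and for 40.2% of all genes tested. The median difference was 1.62 over the 9 members and 0.03 over all genes tested, and DSG1 is counted here although it passed the limit only through replicate 1. With 1 library on one side these counts have no test.

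The differences moved with GC content and with scaling. Of the 9 members tested, those that were higher in replicate 1 have a GC content of 38.9% to 47.9%. Those that were not, DSG2 apart, have 56.4% to 66.7%. DSC1, below the limit for testing, was at 0.97 with a GC content of 41.5%. After subtraction of the median difference of genes of like GC content (20 bins, chosen after seeing the data), DSG3, DSC2, DSC3 and DSP were at 2.17, 1.25, 1.46 and 1.55, and DSG1 was above all of them. PKP3 was then at 1.10, JUP at -0.44, PKP1 at 0.96 and DSG2 at -0.67, so that 6 of 9 were higher and 0 lower, against 11.9% and 15.6% of 11889 genes. When TPM was scaled over all rows in place of protein-coding genes, the median of replicate 1 shifted by -1.56. Of 8 members, 1 was then higher (DSG3) and 4 lower (DSG2, JUP, PKP1 and PKP3). No share of all genes is given for this scaling, so these counts have no background. DSG1 fell below the limit there, with a mean TPM of 0.924, though its difference was 2.23. In that scaling DSG3 was at 1.25, DSP at 0.09 and DSG2 at -1.57, all to be read against the shift.

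**Figure D5:**
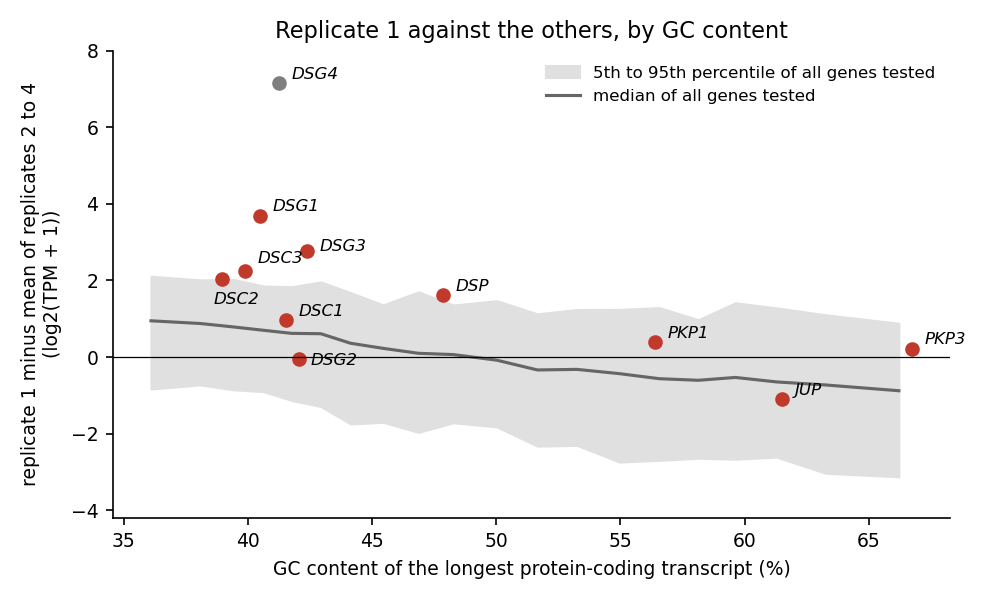
Replicate 1 minus the mean of replicates 2 to 4 in log2(TPM + 1) (vertical axis) against the GC content of the longest protein-coding transcript (horizontal axis, percent); the grey line and band are the median and the 5th to 95th percentile of all genes tested in 20 bins of GC content, red points are the members and the grey point is DSG4. DSG1, DSG3, DSC2, DSC3 and DSP lay above the 95th percentile of their bin, and DSG2 and JUP below the median of genes of like GC content.

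Replicate 3 was the low library for most cadherins and DSP. Its log2(TPM + 1) minus the mean of the other 3 was -2.32 for DSG3, -2.13 for DSP, -2.10 for DSC3, -1.64 for DSC2, -1.23 for DSG1 and -1.12 for DSG2. These 6 of 9 members were lower by more than 1, compared with 14.4% of all genes tested. DSG1 counts among them only through its level in replicate 1, as it had 0 counts in replicates 2, 3 and 4 alike. DSG3, DSP, DSC3 and DSC2 were highest in replicate 1, which enters the mean of the other 3. Their differences thus repeat part of those of replicate 1. Of the 9 members, 0 were higher, compared with 3.05%. Replicate 3 was the lowest of the 4 for 6 of 9 members (DSG2, DSG3, DSC2, DSC3, DSP and PKP1) and for 40.1% of all genes tested. JUP and PKP3, the shortest members, were at -0.25 and 0.05. After subtraction of the median of genes of like length (20 bins, chosen after seeing the data), DSG3, DSC3, DSC2 and DSP were at -1.74, -1.38, -1.16 and -1.14, and the other 5 between -0.55 and 0.13.

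The members differed in their spread over the 4 replicates. The SD of log2(TPM + 1) was 1.58 for DSG3, 1.33 for DSC3, 1.17 for DSP and 1.14 for DSC2, whereas it was 0.63 for JUP, 0.61 for DSG2, 0.45 for PKP1 and 0.29 for PKP3. The median over the 9 members with a mean TPM above 1 was 1.14 and that over all genes tested was 0.52 (5th to 95th percentile 0.17 to 1.42), with 7 of 9 members above it and PKP1 and PKP3 below. DSG1 is among the 7 through replicate 1 alone. Without replicate 1 the medians were 0.64 and 0.33, and PKP1, with an SD of 0.50, was then above the latter. Without replicate 3 the medians were 0.76 and 0.48.

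Other desmosome genes, from a list of 7, were detected in 6 cases by a mean TPM above 1. DSG4 is among the 6 through replicate 1 alone. PERP, a membrane protein of desmosomes, had a TPM of 634, 144, 136 and 191 in replicates 1 to 4 and was higher in replicate 1, as were several cadherins. PKP2, another plakophilin, had 20.4, 62.1, 36.2 and 51.9, well below PKP1 and PKP3 in every library. The plakins of the cornified envelope, PPL and EVPL, had 142 to 215 and 38.2 to 75.6. CDSN (corneodesmosin), a component of the desmosomes of the cornified layer, had a mean TPM of 0.652. Of the 6 genes detected, 2 were higher (DSG4 and PERP) and 1 lower (PKP2) by more than 1 in replicate 1. Among all genes tested the shares were 17.4% and 20.1%. The log2(TPM + 1) differences of PKP4, EVPL and PPL in replicate 1 were -0.37, -0.35 and -0.12.

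All 9 genes of the adherens junction list were detected in every replicate. CTNND1 (p120 catenin), which binds classical cadherins, had a TPM of 35.5, 285, 136 and 282 and was lowest in replicate 1, as JUP was. NECTIN1 had 62.7, 212, 116 and 286 and NECTIN4 had 69.9, 20.4, 8.20 and 17.5, so these related adhesion proteins differed in opposite directions in replicate 1. In that list 1 of 9 genes was higher and 2 of 9 were lower by more than 1 on the log2(TPM + 1) scale in replicate 1, near the 17.4% and 20.1% of all genes tested.

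The keratins to which DSP connects were detected in 9 of 9 cases by a mean TPM above 1, and 8 were above 1 in every replicate. KRT5 and KRT14, the basal pair, had a TPM of 1920 to 5396 and 6375 to 7642. KRT1 and KRT10, the pair of the upper layers in which DSG1 and DSC1 are known, had 124 and 229 in replicate 1 and 0.219 to 0.545 and 31.3 to 52.4 in the others. KRT16, which is known from stressed and hyperproliferative epidermis, had 140 in replicate 1 and 7.81 to 19.2 in the others. KRT8 and KRT18, the pair of simple epithelia, were lower in replicate 1, with 1095 and 444 against 2328 to 3266 and 1155 to 1456. Over the 9 keratins, 4 were higher and 2 lower by more than 1 in replicate 1, beside 17.4% and 20.1% of all genes tested. The count of lower keratins was thus near the background. KRT1 is among the 4 although it passed the limit of a mean TPM above 1 only through replicate 1.

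Among 17 regulators of desmosomes and proteases that cleave them, 14 had a mean TPM above 1. TP63, the transcription factor of basal keratinocytes, had a TPM of 90.7, 86.1, 34.5 and 73.4, and GRHL1, a Grainyhead-like factor of epithelia, had 13.4, 7.39, 5.00 and 6.55. SNAI1, ZEB1 and ZEB2, repressors of epithelial cadherins, had mean TPMs of 0.382, 0.115 and 0.0281, while their relative SNAI2 had 31.6 ± 12.3 (SD, n = 4). The sheddases ADAM10 and ADAM17 had 97.8 ± 38.1 and 34.1 ± 8.03, and KLK5, a protease of the cornified layer, 312 ± 88.5. ERBIN, which binds desmosomal proteins, had 89.5, 29.8, 11.8 and 33.6, the same order of replicates as DSP with the exception of replicates 2 and 4. Of the 14 genes detected, 1 was higher and 4 were lower by more than 1 in replicate 1, beside 17.4% and 20.1% of all genes tested.

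The 5 genes whose pattern over the 4 replicates was nearest to that of the summed members were ZNF169, CDC7, FAM13A, CENPT and CIR1, by the root mean square difference of centred log2(TPM + 1), which ran from 0.00945 to 0.0232. The comparison rests on 4 libraries and 12156 candidate genes. The levels of CDC7 were 10.6, 9.03, 5.41 and 9.94, with the highest value in replicate 1 and the lowest in replicate 3, as for the sum of the members. CDC7 was picked for this likeness, so the shared order follows from the choice and is no separate result.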

How the data were processed

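RNA-seq of 4 replicates of untreated HaCaT was analysed, grouped by their labels. The authors deposited raw counts for 44591 genes per replicate, not normalized, with gene lengths and positions. Beside them, the authors deposited RPKM (replicates 1 and 2) or TPM (replicates 3 and 4), which were used only to check the arithmetic (largest relative gap 6.66e-07). The submitters' processing notes name hg19, HISAT2, HISAT, TopHat2 and Bowtie2 without roles; the counting program, annotation and strand setting are not given in the sources used here.

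TPM was computed from the deposited counts and lengths over 19233 protein-coding genes, because the share of other RNA classes differed between replicates, and read on the log2(TPM + 1) scale, which understates the differences of low genes. Genes with a mean TPM above 1 were tested (12165), and a replicate was called different past a log2 difference of 1. With a single condition no count model was fitted. The 11 fixed differences within a replicate were tested by exact permutation (sign-flip, two-sided). Intervals are Clopper-Pearson or exact Poisson at 95%, a floor is 3 counts, and both cover only the error of counting, because reads that carry no molecular identifiers need not be separate molecules. The total counts of 17056035 to 73082279 gave every member except DSG1 and DSC1 at least 829 counts per library. GC content came from the longest protein-coding transcript in GENCODE release 29 (97.7% of tested genes matched), and promoters from RefSeq. The text names all 10 members, up to 8 genes of each fixed list, and the 5 genes nearest in pattern. The members and lists were chosen with earlier results of these data known. The scripts were tested on simulated data. Alternatives were TPM over all rows, upper quartile scaling, median-of-ratios size factors, no length correction, exon-union lengths, other pseudocounts and limits, and leaving out each replicate. The software was pandas 2.3.3, NumPy 2.4.6, SciPy 1.17.1 and matplotlib 3.10.9 in Python 3.11.15.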

Additional observations from a re-analysis of the deposited data

Results flagged for a closer look

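Values were checked for a single replicate far from the other 3, by the gap to the nearest value over the whole range (Dixon's 95% limit). Of 75 sets of 4 values, 14 passed, and in 12 of the 14 the distant value was that of replicate 1. For independent values from 1 normal distribution the limit passes about 1 in 20 (3.75 of 75). TPM values need not follow such a distribution, and a gene with counts in a single library, such as DSG1, always passes. The 3.75 is therefore not a chance rate for these sets. The sets overlap, as shares and differences are built from the same genes.

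Among the members, DSG1 stood apart with a TPM of 11.9 in replicate 1 against 0 in the others, and DSC1 with 1.03 against 0 to 0.0943. The share of DSG1 among the desmogleins was 1.63% in replicate 1 against 0%, or 1.24% with DSG4 included, and the share of DSG4 was 23.9% against 0.0451% to 0.538%. The log2(TPM + 1) difference of desmogleins from desmocollins was 0.70 in replicate 1 against 1.21 to 1.27. That of desmosomal from classical cadherins was 1.70 against -0.61 to -0.29. Both differences leave out DSG4, which had a TPM of 230 in replicate 1.

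Outside the members, replicate 1 was distant for DSG4 with a TPM of 230 against 0.143 to 1.76, for PERP with 634 against 136 to 191, for KRT16 with 140 against 7.81 to 19.2, for KRT1 with 124 against 0.219 to 0.545 and for KRT10 with 229 against 31.3 to 52.4. Replicate 3 was low for GRHL3, with a TPM of 3.87 against 10.3 to 10.8. Replicate 2 was high for KLK14, a protease of the cornified layer, with 25.1 against 0.353 to 2.56.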

How the results depend on the processing

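Of the values that answer a comparison, 133 moved by less than the spread or kept their direction under the alternatives, 7 moved and 3 reversed. Of the single-gene values, 153 did so and 21 moved. A mean over 4 replicates cannot move by more than its SD when 1 is left out, so that outcome was fixed in advance for levels and shares. The mean TPM of DSG3 went from 215 to 94.1 without replicate 1 and still counted as within the spread. The counts of 133 and 153 are thus no measure of robustness. Leaving out each replicate in turn gave a range of -0.19 to 0.83 for the log2 difference of DSG2 from DSG3, which was below 0 without replicate 3 (-0.18) and without replicate 4 (-0.19). The same gave -0.40 to 0.37 for desmosomal minus classical cadherins, below 0 only without replicate 1 (-0.40), and 2 to 6 separated neighbours, with 6 only without replicate 1. Scaling TPM over all rows gave a summed level of 1861, with 1 member higher and 4 lower in replicate 1. In that scaling the median of replicate 1 shifted by -1.56, and no share of all genes is given. Centring on GC content left 0 lower. With exon-union lengths DSC2 minus DSC3 was -2.58 in place of -1.23 and JUP minus CTNNB1 3.69 in place of 2.58. The median SD of the members was 0.64 to 1.40 with each replicate left out. Without length correction the share of DSC3 was 77.6% and that of PKP3 52.6%. Beyond the fewer genes or other lengths these settings use, the cause was not tested. A pseudocount of 0 gave no value for the 4 pairs that hold DSG1 or DSC1, which have libraries at 0. No paired analysis was possible because there is 1 group. With 4 replicates the sign-flip test cannot pass 0.05, so a kept direction under it says nothing of significance. Levels of DSG1 and DSC1 below 3 counts per library were not detectable at this depth.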
